A study of Mus musculus with 6 samples.

Results

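The genes described here encode the pumps and exchangers that move calcium across cell membranes and the small proteins that bind it in the cytosol: the SERCA pumps Atp2a2 and Atp2a3, the PMCA pumps Atp2b1, Atp2b2 and Atp2b4, the exchangers Slc8a1, Slc8a3 and Slc24a3, and the buffers S100g and Calb1. They were chosen by gene symbol, as 10 genes named for their roles in calcium handling by ameloblasts. Of these, 8 had a row among the 20161 gene rows of the deposited normalized table, and Atp2a3 and Atp2b2, the other 2, were read from the deposited count table of 48709 gene rows. After a filter on low counts 7 remained among the 16011 genes tested, and Atp2a3, Atp2b2 and Slc8a1 (3 genes) are given as counts.

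Total RNA came from the first molar tooth germs of C57BL/6 mice at postnatal day 7, as 3 libraries of wild-type (WT) mice and 3 of Gpr115-KO littermates, whose genotype is also written Gpr115-/-. Gpr115 is an adhesion-type receptor coupled to G proteins, listed as Adgrf4 in the tables, and the series title links it to enamel mineralization by ameloblasts. The labels do not say which part of the gene was deleted, in which cells, or whether germs were pooled. P-values therefore measure only the spread between these libraries, part of which may be technical. Sex-linked genes, given below, differed between libraries within each group.

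Enamel is mineralized by ameloblasts, epithelial cells that first secrete a protein matrix and later, in the maturation stage, remove it while mineral grows. Calcium that enters the cell is kept low in the cytosol by SERCA pumps, which load it into the endoplasmic reticulum, and by PMCA pumps and sodium-dependent exchangers, which carry it out across the plasma membrane. Calbindins bind calcium on its way through the cytosol and are abundant in ameloblasts.

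SERCA and PMCA pumps are P-type ATPases: during each transport cycle an aspartate of the pump takes a phosphate from ATP. The coding sequence around that aspartate is shown because it is what these pumps share, and because it shows how far reads of related pumps can be told apart. The windows are 57 nt of GENCODE vM21 transcripts on build GRCm38, written 5′ to 3′ on the strand of each gene, and the capitals mark the 15 nt that encode the aspartate and the next 4 residues. Atp2a3 is read from the plus strand at chr11:72975585-72975641, Atp2b1 from the plus strand at chr10:98999796-98999852, Atp2b2 from the minus strand at chr6:113789882-113789938 and Atp2b4 from the minus strand at chr1:133731792-133731848.
Atp2a3: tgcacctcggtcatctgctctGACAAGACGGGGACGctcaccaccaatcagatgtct
Atp2b1: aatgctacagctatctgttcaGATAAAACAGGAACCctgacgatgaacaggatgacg
Atp2b2: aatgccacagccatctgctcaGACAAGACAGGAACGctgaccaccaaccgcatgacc
Atp2b4: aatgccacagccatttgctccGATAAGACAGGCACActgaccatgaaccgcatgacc

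In this window Atp2b1 had 45 bases identical to Atp2b4, and Atp2b2 had 50. Over the aligned coding sequence the identity was 71.2% for Atp2a2 and Atp2a3, 72.1% for Atp2b1 and Atp2b4, 73.2% for Atp2b1 and Atp2b2, 74.6% for Atp2b2 and Atp2b4, and 61.9% for Atp2a2 and Atp2b1. Among these pairs the longest exact shared stretch was 44 nt, between Atp2a2 and Atp2a3, against reads of 150 nt. Other pairs across the 2 pump families, and pairs with Atp2a1, were not compared in this way. Slc8a1 and Slc8a3, the exchangers of the NCX family, had 72.5% identity and a longest shared stretch of 17 nt. No pair of these genes was near-identical at 95% over at least 150 nt. Outside the group, Atp2a2 had a near-identical stretch of 362 nt in Gm30970, which has no row in the count table, and Atp2b1 had a stretch of 468 nt in Gm29808, a row with 6 to 13 counts per library. Slc8a1 had a stretch of 309 nt in AC122399.1, a gene on the opposite strand of the same locus with no row in the count table.

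The buffers bind calcium through EF hands, loops between helices in which acidic residues hold the ion. The loops are shown because S100g and Calb1 differ in the number that match the pattern searched here. The coding sequence was searched for 12-residue loops that open with aspartate, close with glutamate, have glycine at the sixth place, an aspartate, asparagine or serine at the third and the fifth, and an isoleucine, leucine or valine at the eighth. The search found 1 such loop in S100g, the gene of calbindin-D9k, on the minus strand at chrX:162962169-162962204. It found 4 in Calb1, the gene of calbindin-D28k, on the plus strand at chr4:15881468-15881983, chr4:15895644-15895679, chr4:15900781-15900816 and chr4:15901137-15904279, of which the first and the last span an intron. No match says only that this pattern was not in the sequence, so other forms of the EF hand were not counted. The capitals mark the codons of the opening aspartate and the closing glutamate.
S100g: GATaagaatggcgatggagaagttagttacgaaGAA
Calb1 loop 1: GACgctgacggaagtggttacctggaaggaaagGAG
Calb1 loop 2: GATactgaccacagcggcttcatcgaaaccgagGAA
Calb1 loop 3: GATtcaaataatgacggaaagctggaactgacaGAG
Calb1 loop 4: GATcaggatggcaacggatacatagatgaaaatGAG

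Library totals ran from 8317302 to 11122821 counts, so 3 counts, the upper limit that a count of 0 allows, corresponded to 0.272 to 0.342 CPM (counts per 1000000, on library sizes scaled by TMM). Adgrf4, the targeted gene, was at 67.1, 62.5 and 67.5 CPM in WT and at 39.2, 20.6 and 27.5 CPM in Gpr115-KO, a log2 fold change of -1.18 (SE 0.21, adjusted p = 0.0887 by edgeR) without overlap between the groups. It passed the threshold in DESeq2 (adjusted p = 0.00040), in edgeR without the count filter (7.4e-07), with the replicate number as a block (0.0254) and without Gpr115-KO replicate 1 (0.0143). It did not pass in the other 14 of 18 alternative runs. Without the count filter, calls over all genes also rose, from 6 higher and 18 lower to 135 and 365. Since the deleted part is not stated, reads outside it could remain. Enamel matrix genes marked every library as tooth germ: Ambn (ameloblastin) lay between 53962 and 140561 CPM. Sums of cell type markers differed between libraries within both groups. Odontoblast markers summed to 43773 to 94475 CPM in WT and 48626 to 81994 CPM in Gpr115-KO. Keratinizing oral epithelium markers summed to 144, 38.3 and 119 CPM in WT and to 282, 38.6 and 53.5 CPM in Gpr115-KO. Gpr115-KO replicate 2 stood apart in the sums that follow. Its sum of secretory ameloblast markers was the highest (202558 CPM against 92159 to 140809 in the others). Its sum of maturation markers was the lowest (2570 against 5745 to 9402), and that of skeletal muscle markers the highest (293 against 31.2 to 79.3). The maturation gene Odam made up most of the maturation sum in every library, with 1473 CPM in Gpr115-KO replicate 2 and 4583 to 7942 in the others. Gpr115-KO replicate 3 differed in other ways. It had the lowest secretory sum (92159 CPM), and its top gene was Col1a1, while that of every other library was Ambn. Its sum of pulp and follicle mesenchyme markers was the highest (2115 CPM against 1201 to 1545 in the others). Its sex-linked genes also differed, with Xist at 2.93 CPM against 28.9 to 47.8 elsewhere and Ddx3y at 183 CPM. WT replicate 2 had 19.2 CPM of Ddx3y beside its Xist.

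The calcium handling genes covered a wide range of levels, compared here as CPM per kb of exonic length. Calb1 stood highest with a mean of 691 CPM per kb over the 6 libraries, above 99.8% of the tested genes. Atp2b1 followed at 42.7, Atp2a2 at 12.9 and Slc24a3 at 7.18 CPM per kb. S100g was at 2.61, Slc8a3 at 1.81 and Atp2b4 at 1.15 CPM per kb. Lowest were Atp2a3 at 0.0511, Slc8a1 at 0.0138 and Atp2b2 at 0.00631 CPM per kb. The ranges over the libraries did not overlap between Calb1 and Atp2b1, between Atp2b1 and Atp2a2, or between Atp2b4 and Atp2a3. All other neighbours in this order overlapped, although Atp2a2 exceeded Slc24a3, Slc24a3 exceeded S100g and Slc8a3 exceeded Atp2b4 within 6 of 6 libraries. S100g exceeded Slc8a3 in 3 of 6. These were bulk samples, in which fewer cells of a type and less RNA per cell cannot be told apart.

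**Figure D1:**
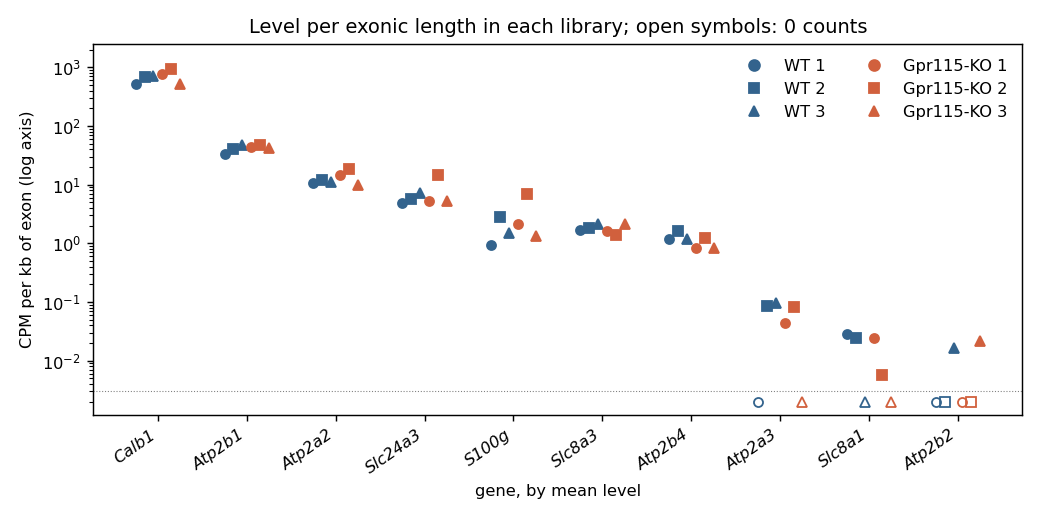
Level of each calcium handling gene in CPM per kb of exonic length on a log axis, 1 symbol per library, with colours for genotype and open symbols below the dotted line for libraries with 0 counts. Calb1 lies above every other gene in every library, and Atp2a3, Slc8a1 and Atp2b2 lie below the rest.

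The comparison of Gpr115-KO with WT asked whether loss of the receptor changed the RNA of the calcium handling genes. None was called: 0 of the 7 tested genes passed an adjusted p of 0.05 in edgeR's quasi-likelihood test, against 0.15% of all tested genes (6 higher, 0.0375%, and 18 lower, 0.112%). None had an unadjusted p under 0.05, against 12.3% of all tested genes. DESeq2, which gave 6 of them an adjusted p, also called 0 (1.57% over all genes) and had 0 at an unadjusted p under 0.05 (11%). With limma-voom the counts were likewise 0 called (0.112%) and 0 at an unadjusted p under 0.05 (12.7%). The log2 fold changes lay above 0 for 5 genes and below 0 for 2, with a median of 0.20, beside 8212 above, 7799 below and a median of 0.01 over all tested genes. No member had groups that did not overlap, against 17.5% of all tested genes (8.55% higher and 8.99% lower in Gpr115-KO). The confidence intervals below show which sizes of change these libraries leave possible for each gene.

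**Figure D2:**
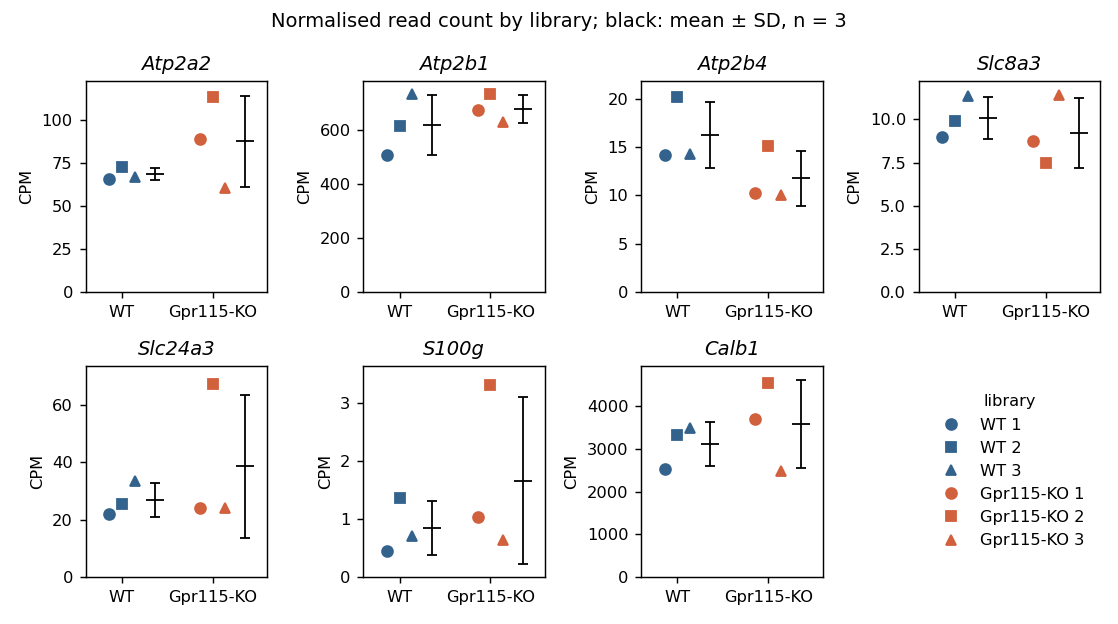
CPM in each library for the 7 tested calcium handling genes, 1 panel per gene with its own axis from 0, symbols for libraries and a black mark with bars for the mean ± SD (n = 3) of each genotype. The genotypes overlap in every panel, and Gpr115-KO replicate 2 is the highest library for Atp2a2, Atp2b1, Slc24a3, S100g and Calb1.

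Atp2a2 (ENSMUSG00000029467, chr5:122453513-122502225, minus strand) encodes SERCA2, the pump that most cells use to fill the endoplasmic reticulum. It was at 65.9, 72.9 and 67.2 CPM in the WT libraries and at 89.0, 114 and 60.5 CPM in Gpr115-KO. The WT values lay close together, and the Gpr115-KO libraries fell on both sides of them. The means were 68.7 ± 3.69 CPM (SD, n = 3) and 87.7 ± 26.5 CPM (SD, n = 3). The log2 fold change was 0.35 (SE 0.21, 95% interval -0.11 to 0.82, edgeR adjusted p = 0.529), and 0.12 without Gpr115-KO replicate 2 (adjusted p = 0.891). Its exons overlap those of Gm43361 on the opposite strand by 83 nt, and the library kit did not mark strand. Gm43361 was at 112 to 140 CPM in WT and at 59.4 to 83.3 CPM in Gpr115-KO, opposite in direction to Atp2a2, and the part of these shared 83 nt in either value was not tested.

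Atp2a3 (ENSMUSG00000020788, chr11:72961169-72993044, plus strand) encodes SERCA3, a pump known from blood and some epithelial cells. It had 0, 4 and 5 counts in WT and 2, 4 and 0 counts in Gpr115-KO, 9 against 6 in all. These counts were at or near the limit set by depth in every library, and no change was detectable.

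The SERCA family was thus mostly Atp2a2 at the RNA level. Its share of the summed CPM per kb of Atp2a1, Atp2a2 and Atp2a3 was 88.4 ± 3.07% (SD, n = 3) in WT and 86.3 ± 7.60% (SD, n = 3) in Gpr115-KO. Atp2a1, the SERCA1 pump of fast skeletal muscle, took nearly all of the remainder, from 4.88% in Gpr115-KO replicate 1 to 19.3% in Gpr115-KO replicate 2. Its level was 6.71, 4.32 and 3.76 CPM in WT, against 2.62, 15.6 and 6.77 CPM in Gpr115-KO (log2 fold change 0.75, SE 0.55, adjusted p = 0.618 by edgeR). The summed CPM of 13 skeletal muscle markers, none of them at 0 in all libraries, were 74.5, 57.6 and 46.2 in WT, against 31.2, 293 and 79.3 in Gpr115-KO. Atp2a1 had its lowest and its highest value in the same libraries as this sum. Atp2a1 is itself among the 13 markers, so the sum is not independent of it. Exons of Atp2a1 also share 763 nt with Rabep2 on the opposite strand (288 to 416 counts per library). Reads of that stretch cannot be told apart, and the level and share of Atp2a1 rest on that count. Rabep2 was likewise lowest in Gpr115-KO replicate 1 (32.8 CPM) and highest in Gpr115-KO replicate 2 (44.5 CPM). How much of Atp2a1 came from Rabep2, or of Atp2a1 or Atp2a2 from muscle, was not tested.

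Atp2b1 (ENSMUSG00000019943, chr10:98914406-99026143, plus strand) encodes PMCA1, the plasma membrane pump found in most cells. It was at 511, 615 and 734 CPM in WT and at 676, 735 and 632 CPM in Gpr115-KO. Gpr115-KO replicates 1 and 3 fell inside the range of WT, whose libraries spread more widely, and replicate 2 was nearly equal to the highest WT library. The means were 620 ± 112 CPM (SD, n = 3) and 681 ± 51.4 CPM (SD, n = 3). The log2 fold change was 0.14 (SE 0.19, 95% interval -0.28 to 0.55, edgeR adjusted p = 0.813). It moved to 0.35 (adjusted p = 0.566) when the trend of each library on gene length was removed, and to 0.01 without WT replicate 1.

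Atp2b4 (ENSMUSG00000026463, chr1:133699457-133801041, minus strand) encodes PMCA4, a pump known from sperm, blood cells and smooth muscle. It was at 14.2, 20.2 and 14.3 CPM in WT and at 10.3, 15.1 and 10.1 CPM in Gpr115-KO. Gpr115-KO replicates 1 and 3 lay below every WT library, and replicate 2 lay above 2 of them. The means were 16.3 ± 3.43 CPM (SD, n = 3) and 11.8 ± 2.84 CPM (SD, n = 3). The log2 fold change was -0.46 (SE 0.24, 95% interval -0.99 to 0.06), with an unadjusted p of 0.0783 and an edgeR adjusted p of 0.459. Removing the length trend gave -0.27, and leaving out Gpr115-KO replicate 2 gave -0.68 (adjusted p = 0.479).

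Atp2b2 (ENSMUSG00000030302, chr6:113743831-114042613, minus strand) encodes PMCA2, the pump of hair cells and neurons. It had 0, 0 and 2 counts in WT and 0, 0 and 3 counts in Gpr115-KO. The values were all at or under the 3 counts that a count of 0 allows. Per kb, Atp2b1 made up 96.5 ± 0.81% (SD, n = 3) of PMCA RNA in WT and 97.3 ± 0.12% (SD, n = 3) in Gpr115-KO, and Atp2b4 made up 1.83 to 3.92% over the libraries. The annotated exons of Atp2b1 sum to 15218 nt and its longest transcript has 7130 nt, and with longest transcripts its share was 98.3% in WT and 98.6% in Gpr115-KO.

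Slc8a3 (ENSMUSG00000079055, chr12:81197915-81333180, minus strand) encodes NCX3, an exchanger that trades sodium for calcium across the plasma membrane. It was at 8.98, 9.89 and 11.4 CPM in WT and at 8.77, 7.48 and 11.4 CPM in Gpr115-KO. The Gpr115-KO libraries held both the highest and the lowest value. The means were 10.1 ± 1.21 CPM (SD, n = 3) and 9.23 ± 2.01 CPM (SD, n = 3), with a log2 fold change of -0.12 (SE 0.23, 95% interval -0.64 to 0.39, edgeR adjusted p = 0.868).

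Slc8a1 (ENSMUSG00000054640, chr17:81373105-81738377, minus strand) encodes NCX1, the exchanger of heart muscle. It had 6, 4 and 0 counts in WT and 4, 1 and 0 counts in Gpr115-KO, totals of 10 and 5. Both groups held a library with no count, and no change was detectable at this depth. Slc8a1 lies on chromosome 17, as Adgrf4 does, at a distance of 38.7 Mb, and is the only gene of the group there. Within the NCX family, Slc8a3 made up 95.4 to 100% of the summed CPM per kb over the libraries. Slc8a2, the NCX2 exchanger of brain, had at most 3 counts in a library.

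Slc24a3 (ENSMUSG00000063873, chr2:145167754-145642166, plus strand) encodes NCKX3, which carries calcium out in exchange for sodium and moves potassium along with it. It was at 21.9, 25.6 and 33.3 CPM in WT and at 24.2, 67.5 and 24.2 CPM in Gpr115-KO. Gpr115-KO replicate 2 held 632 counts against 212 to 328 in the other libraries, and replicates 1 and 3 fell inside the range of WT. The means were 26.9 ± 5.86 CPM (SD, n = 3) and 38.6 ± 25.1 CPM (SD, n = 3). The log2 fold change was 0.52 (SE 0.41, 95% interval -0.44 to 1.48, edgeR adjusted p = 0.654), and it turned to -0.15 without replicate 2 (adjusted p = 0.870).

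Slc24a3 was a small part of NCKX RNA. Slc24a5, the NCKX5 exchanger known from pigment cells, was at 656, 591 and 583 CPM in WT and at 504, 494 and 492 CPM in Gpr115-KO. Its groups did not overlap, but it did not pass the test (log2 fold change -0.30, SE 0.16, adjusted p = 0.482 by edgeR). Slc24a5 overlaps Myef2 on the opposite strand by 921 nt of exon, and Myef2 was at 677 to 795 CPM in WT and 569 to 589 CPM in Gpr115-KO. Because strand was not marked, reads of the shared stretch cannot be told apart, and the large share of Slc24a5 (92.4 to 96.7%) rests on that count. Without Slc24a5, Slc24a3 made up 50.5, 57.5 and 64.9% of the family in WT, against 46.2, 85.4 and 68.9% in Gpr115-KO. Slc24a4, which encodes NCKX4, the exchanger of maturation ameloblasts, made up 45.9, 40.0 and 32.6% in WT, against 51.2, 13.2 and 29.5% in Gpr115-KO. Its CPM were 19.7, 17.6 and 16.6 in WT, against 26.5, 10.4 and 10.2 in Gpr115-KO (log2 fold change -0.20, SE 0.35, adjusted p = 0.856 by edgeR). Slc24a4 was highest in Gpr115-KO replicate 1, the library with the highest sum of maturation markers, a sum that includes Slc24a4 itself. Slc24a3 was highest in replicate 2, which had the lowest sum. Whether stage set these values was not tested.

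**Figure D3:**
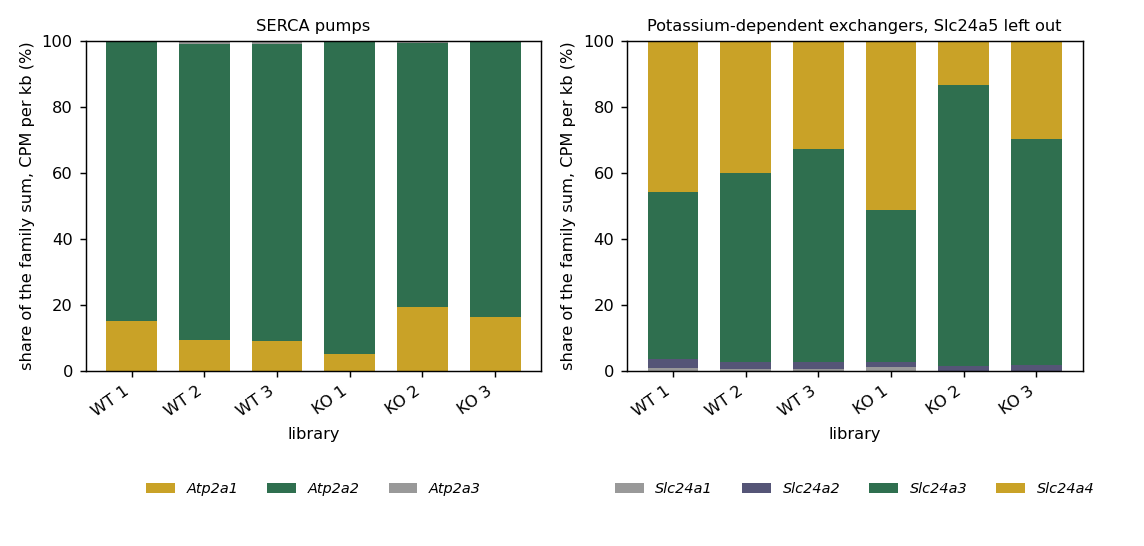
Share in percent of the summed CPM per kb that each gene takes within the SERCA pumps (left) and within the NCKX exchangers with Slc24a5 left out (right), 1 stacked bar per library. Atp2a2 makes up 80.3 to 94.8% of the SERCA bars, and in Gpr115-KO replicate 2 the share of Atp2a1 is highest in the left panel and that of Slc24a3, 85.4%, highest in the right panel.

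Calb1 (ENSMUSG00000028222, chr4:15881264-15908064, plus strand) was the most abundant of the calcium handling genes. It was at 2523, 3331 and 3492 CPM in WT and at 3708, 4542 and 2493 CPM in Gpr115-KO. The Gpr115-KO libraries held both the highest and the lowest value, with WT between them. The means were 3115 ± 519 CPM (SD, n = 3) and 3581 ± 1030 CPM (SD, n = 3). The log2 fold change was 0.20 (SE 0.26, 95% interval -0.36 to 0.77, edgeR adjusted p = 0.792), and -0.01 without Gpr115-KO replicate 2 (adjusted p = 0.997).

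Calb1 was also set against the enamel matrix genes within each library, among 7 ratios computed, which were chosen after the values had been seen and are given without a test. Per 1000 counts of Ambn, Calb1 had 34.3, 38.0 and 34.8 counts in WT and 44.9, 32.3 and 46.2 counts in Gpr115-KO. Gpr115-KO replicates 1 and 3 lay above WT in this ratio and replicate 2 below it. Per 1000 counts of Enam, the gene of enamelin, Calb1 had 221, 263 and 274 counts in WT and 316, 327 and 315 counts in Gpr115-KO. By the Enam ratio all 3 Gpr115-KO libraries lay above WT and close together, so the picture depends on the matrix gene used as the base.

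S100g (ENSMUSG00000040808, chrX:162961992-162964599, minus strand), a vitamin D-responsive gene in the intestine, was near the limit of depth. It had 5, 12 and 7 counts in WT and 9, 31 and 7 counts in Gpr115-KO. In CPM these were 0.453, 1.36 and 0.711 in WT, against 1.03, 3.31 and 0.640 in Gpr115-KO. The exact Poisson interval at 95%, which covers counting error only, was 2.25 to 4.70 CPM for Gpr115-KO replicate 2 and 0.705 to 2.38 CPM for WT replicate 2. The log2 fold change was 0.98 (SE 0.69, 95% interval -0.53 to 2.5, edgeR adjusted p = 0.594), and -0.01 without Gpr115-KO replicate 2 (adjusted p = 0.999). Among the EF-hand buffers Calb1, S100g, Calb2 and Pvalb, S100g made up 0.18 to 0.73% of the summed CPM per kb and Calb1 99.2 to 99.8%. From the vitamin D axis, 2 genes are given that were chosen after their values were seen: Vdr, the receptor, was at 61.4 to 98.7 CPM, and Cyp24a1, its target that degrades vitamin D, had no count in any library.

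**Figure D4:**
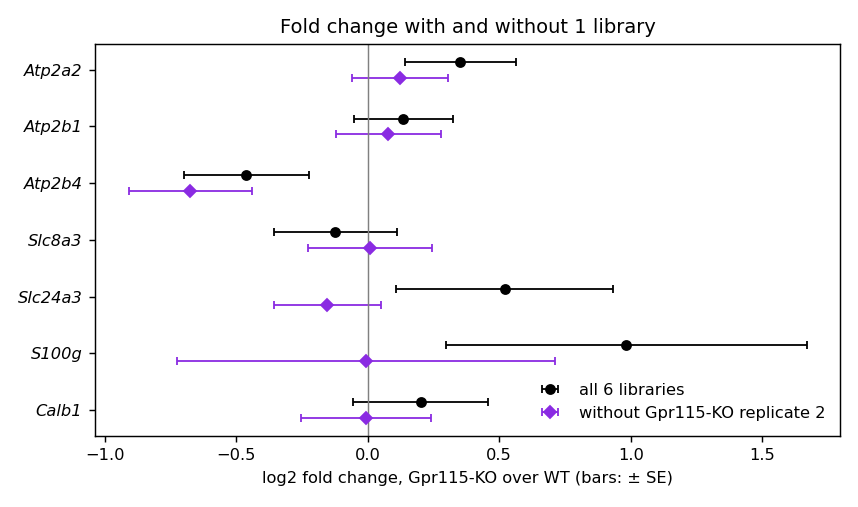
Log2 fold change of Gpr115-KO over WT for the 7 tested calcium handling genes with all libraries (circles) and without Gpr115-KO replicate 2 (diamonds), with bars of ± SE. Without that library Slc24a3, S100g and Calb1 move from above 0 to -0.15, -0.01 and -0.01.

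Gpr115-KO replicate 2 held the highest value of 5 of the 7 tested genes (Atp2a2, Atp2b1, Slc24a3, S100g and Calb1) and the lowest of 1, Slc8a3. These 5 were also the genes above 0. Leaving out this library lowered their log2 fold changes, which follows from its holding their highest values and is not a separate result. Over all tested genes it was the highest library for 26.3% and the lowest for 24.9%. Without it Slc8a3 was at 0.01 on the log2 scale (adjusted p = 0.997) and Atp2b1 at 0.08 (adjusted p = 0.939), while Atp2b4 kept its sign and Atp2a2 remained above 0. Secretory matrix genes were highest in the same library, with Ambn at 140561 CPM against 53962 to 100452 in the others. Of 11 maturation markers, Odam was at 1473 CPM there against 4583 to 7942. Car6, a secreted carbonic anhydrase, was at 7.48 CPM there and also low in Gpr115-KO replicate 3 (12.3 CPM), against 77.9 to 154 CPM in the others. Klk4 and Slc24a4 were lowest in Gpr115-KO replicate 3 instead (50.2 and 10.2 CPM), close to replicate 2 (53.0 and 10.4 CPM). Gpr115-KO replicate 3 was also the lowest library for 3 of the 7 tested calcium handling genes (Atp2a2, Atp2b4 and Calb1), beside 17.1% of all tested genes. WT replicate 1 was the lowest for another 3 (Atp2b1, Slc24a3 and S100g), beside 20.5%. Erythroid markers summed to 396 CPM in Gpr115-KO replicate 2, 305 and 159 in Gpr115-KO replicates 1 and 3, and 139 to 158 in WT. Leukocyte and platelet markers summed to 107 to 119 CPM in WT and 121 to 146 in Gpr115-KO. The part of stage or of other cells in the members' values was not tested.

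**Figure D5:**
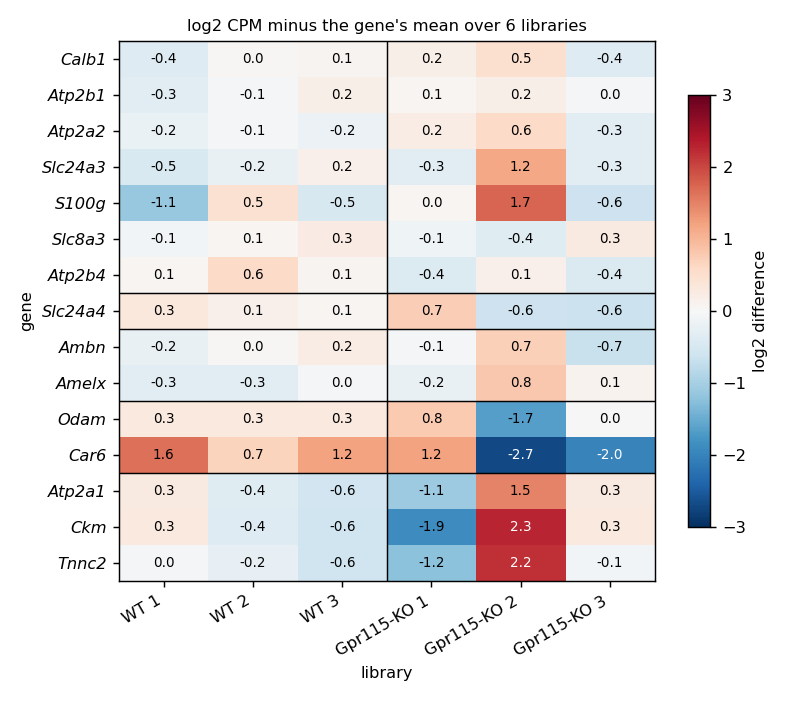
Log2 CPM minus the gene's mean over the 6 libraries, as numbers and colours (limited to ±3), for the 7 tested calcium handling genes, Slc24a4, secretory (Ambn, Amelx) and maturation (Odam, Car6) ameloblast genes, and muscle genes (Atp2a1, Ckm, Tnnc2), 1 column per library. Gpr115-KO replicate 2 is highest for 5 of the calcium handling genes, Ambn, Amelx and the muscle genes, and lowest for Odam and Car6. Car6 is at -2.7 there and at -2.0 in Gpr115-KO replicate 3.

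The remaining pumps and exchangers, 10 genes with 6 tested, gave no call either (0 of 6 in edgeR, DESeq2 and limma-voom, with 0, 1 and 0 at an unadjusted p under 0.05). Of these, 1 lay above 0 (Atp2a1) and 5 below, with a median of -0.16. Atp2c1, which loads calcium into the Golgi apparatus, stayed at 42.4 to 50.5 CPM. Its log2 fold change was -0.00 (SE 0.15, adjusted p = 0.996 by edgeR). It shares 1837 nt of exon with Aste1 on the opposite strand (110 to 224 counts per library), and reads of that stretch cannot be told apart. Slc8b1, the mitochondrial sodium-calcium exchanger, had a log2 fold change of -0.12 (SE 0.35, adjusted p = 0.916 by edgeR), and Slc24a2, the NCKX2 exchanger, of -0.37 (SE 0.38, adjusted p = 0.739 by edgeR). The untested genes Atp2b3 and Atp2c2 had at most 20 and 9 counts in a library, and Slc24a1 at most 5.

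Genes that work around the pumps were read from 5 further lists. Together with the other pumps and exchangers these held 76 genes, of which 56 were tested and 0 called by edgeR. Above 0 lay 32 and below 0 lay 24, with a median of 0.05. At an unadjusted p under 0.05 edgeR counted 6 of 56, DESeq2 8 and limma-voom 6, close to the shares over all genes (12.3%, 11% and 12.7%). Of these 3 tools only DESeq2 called a gene, Cacna1c, 1 of 54 with an adjusted p beside 1.57% over all genes.

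Among regulators and partners of the pumps 7 of 8 tested genes were above 0 and the median difference was 0.20 on the log2 scale. Nptn (neuroplastin), an obligate partner of PMCA pumps, had a log2 fold change of 0.32 (SE 0.14, adjusted p = 0.398 by edgeR) without overlap between the groups, and Vmp1, a membrane protein of the endoplasmic reticulum that acts on SERCA, of -0.34 (SE 0.17, adjusted p = 0.440 by edgeR). Among genes of calcium entry and release 4 of 12 lay above 0, with a median of -0.19. Cacna1c, the pore subunit of an L-type calcium channel, was at 63.8, 53.8 and 34.8 CPM in WT and at 28.0, 19.8 and 20.3 CPM in Gpr115-KO. Its groups did not overlap, and its log2 fold change was -1.16 (SE 0.24). The edgeR adjusted p was 0.110. It was 0.0021 in DESeq2, 2.2e-06 in edgeR without the count filter and 0.0286 with the replicate number as a block. Cacna1c did not pass in limma-voom (adjusted p = 0.153) or in edgeR with the length trend removed (0.151, log2 fold change -0.87). With 1 library left out its edgeR adjusted p ran from 0.0502 to 0.441. Stim1 is the sensor that opens store-operated calcium entry when the endoplasmic reticulum is depleted. Its log2 fold change was -0.59 (SE 0.20, adjusted p = 0.292 by edgeR). The groups of Stim1 did not overlap either, nor did those of Micu3 and Rxrb, given below. Over all tested genes 17.5% had groups that did not overlap, and the genes named here had the smallest p of their lists.

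Mitochondrial uptake genes had a median of 0.06 over 8 tested. Mcu, the pore of the mitochondrial uniporter, was at -0.48 (SE 0.21, adjusted p = 0.391 by edgeR) and Micu3, one of its regulators, at -0.34 (SE 0.16, adjusted p = 0.434 by edgeR). The list of other buffers, calcium binding proteins and S100 family genes had a median of 0.06 over 18 tested, with 12 above 0. S100a10 was at 0.63 (SE 0.31, adjusted p = 0.451 by edgeR) and, like 5 of the pumps, exchangers and buffers described above, highest in Gpr115-KO replicate 2, at 178 CPM against 61.6 to 96.1. Calr, the calcium-storing chaperone of the endoplasmic reticulum, was at 0.35 (SE 0.18, adjusted p = 0.461 by edgeR). Vitamin D axis genes had a median of 0.05 over 4 tested, where Rxrb was at 0.60 (SE 0.26, adjusted p = 0.391 by edgeR) and Cubn at -0.62 (SE 0.42, adjusted p = 0.579 by edgeR). Leaving out Gpr115-KO replicate 2 took S100a10 to 0.18 and Calr to 0.18, and leaving out WT replicate 1 took Rxrb to 0.34, Mcu to -0.31 and Micu3 to -0.20. Removing the length trend took Cubn to -0.41.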

How the data were processed

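The authors deposited raw counts per gene for 6 libraries and a second table with a signal that, from the values, is those counts scaled by TMM and given per 1000000. Paired reads of 150 nt came from Nextera XT libraries, which do not mark strand, per the labels' protocols. STAR 2.5.2a and build GRCm38 are named in the submitters' processing notes; neither a counting tool nor an annotation release is named in the sources used here. Dividing this signal by 1 factor per library returned whole reads for 100% of its values, to within 0.01 reads, and edgeR on those reads called 6 genes higher and 18 lower. Table rows for transgene sequences (15, at most 8 counts in a library) were left out.

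The test was that of edgeR 4.0.16 (R 4.3.3) on the counts: filterByExpr (minimum count 10, minimum total 15), TMM, genotype as the only term, a robust quasi-likelihood F test, two-sided, with Benjamini-Hochberg adjustment over 16011 genes. CPM are counts per 1000000 of the TMM-scaled size. Exonic lengths, coordinates and coding sequences are from GENCODE vM21. Pairs of libraries in a group differed beyond sampling noise (chi-square per degree of freedom 16.1 to 67.5). In simulated data for this comparison (15590 genes) the test found 32.0% of the genes given a log2 change of 1 and 83.3% of the genes given 2, with 8.26% of calls false.

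The genes described and all lists were chosen with earlier results of these data known. Named genes are all 10 members, all other pumps and exchangers, from each other list the called genes or the 2 with the smallest p, Adgrf4, and marker genes where a library stood apart. Vdr, Cyp24a1 and genes used only as a base or for an overlap were named outside this rule. The coding window of 1 pump is not reported here. Near-identical copies were sought with blastn 2.17.0. Alternatives used other scalings, filters and thresholds, DESeq2 1.42.0, limma 3.58.1 (voom, and trend on the deposited values), the replicate number as a block, a length correction and each library left out.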

Additional observations from a re-analysis of the deposited data

How the results depend on the processing

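None of the 7 tested members was called under any alternative run, and their lowest adjusted p was 0.261 (Atp2a2 without Gpr115-KO replicate 3, log2 fold change 0.56). Leaving out 1 library moved Atp2a2 between 0.12 and 0.56, Atp2b1 between 0.01 and 0.27, Atp2b4 between -0.68 and -0.28 and Slc24a2 between -0.57 and -0.13 on the log2 scale. It gave ranges of the log2 fold change that crossed 0 for Slc8a3 (-0.31 to 0.0086), Slc24a3 (-0.15 to 0.77), S100g (-0.0073 to 1.49), Calb1 (-0.0067 to 0.41), Atp2a1 (-0.058 to 1.17), Atp2c1 (-0.071 to 0.051), Slc8b1 (-0.60 to 0.089) and Slc24a4 (-0.80 to 0.036). Atp2c1, near 0, also changed sign with DESeq2 size factors (0.0026), library totals (0.074), DESeq2 (0.00076), limma-voom (0.00030), the replicate block (0.00065) and the length trend removed (0.14). The share of Atp2b1 in PMCA RNA moved to 98.3% (WT) and 98.6% (Gpr115-KO) with longest transcripts. Over all genes the calls, 6 higher and 18 lower, became 135 and 365 with no count filter, 60 and 177 in DESeq2, 16 and 35 at an adjusted p of 0.1, and ranged from 5 to 10 and from 7 to 39 when 1 library was left out (39 without Gpr115-KO replicate 1, 10 and 7 without WT replicate 2, 9 lower without WT replicate 1). Lower calls were 11 with library totals and 6 at 0.01. With the replicate block they were 18 higher and 54 lower, with 0 members; deviations of same-numbered libraries had correlations of 0.27, 0.03 and -0.07, and not every library matched its own number best, so the numbers were not taken to pair the libraries. S100g had no value under a minimum of 10 counts in every library, and DESeq2 gave it no adjusted p. The number of libraries, and for Atp2a3, Atp2b2, Slc8a1 and S100g the depth, limit what could be detected.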
